A study of Mus musculus with 33 samples.

Results

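Serum amyloids and acute phase plasma proteins are secreted mainly by the liver, and 10 of their genes were followed here through liver regrowth. They were the serum amyloid A genes Saa1, Saa2, Saa3 and Saa4, the lipocalin genes Lcn2, Orm1 and Orm2, haptoglobin (Hp), hemopexin (Hpx) and the protease inhibitor Serpina3n. Each gene was taken from a fixed list and read from the probe set, a group of array probes for 1 transcript, that named that gene alone and had the highest mean over the arrays. All 10 had such a probe set, among 18193 genes that did. All 10 also passed the filter on low signal, among 13642 genes tested; their signals were above the floor of 5 on all arrays, except for Lcn2 in 1 liver of 0 d.

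The mice had undergone partial hepatectomy, an operation that removes 70% of the liver, and total RNA of 33 livers, taken over 14 days (d), was hybridized to Affymetrix arrays. The groups were 0 d, 0.25 d, 0.5 d, 0.75 d, 1 d, 1.5 d, 2 d, 3 d, 4 d, 7 d and 14 d, with 3 livers each that the labels call biological replicates. All livers share the operation label, the 0 d livers were the reference, and the labels used here name no sham operation, strain, sex or age. Values are log2 signals, so a difference of 1 is a 2-fold change.

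The acute phase response is a change in what hepatocytes secrete after injury or infection. Interleukin-1 (IL-1) and interleukin-6 (IL-6), released largely by macrophages, act through the transcription factors NF-kB, STAT3 and C/EBP on the genes of the secreted proteins. In the liver the serum amyloids, Lcn2 and the orosomucoids are known as its strongly inducible products, while Saa4 is known as a constitutive serum amyloid. The IL-6 branch is also part of the early signalling after partial hepatectomy.

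The 4 serum amyloid genes lie in a cluster on mouse chromosome 7, Orm1 and Orm2 are neighbours on chromosome 4, Lcn2 lies on chromosome 2, Hp on chromosome 8 and Serpina3n on chromosome 12. The 250 bases before the annotated start site were taken from the RefSeq promoter table (build GRCm38.p6), which held 8 of the 10 genes, all but Orm1 and Hp. Of these, 6 are shown 5′ to 3′ on the gene's strand, with matches to the C/EBP motif in capitals: the 4 serum amyloids, because their signals took different courses, Lcn2, whose difference was the largest of the 10, and Serpina3n, in which no match was found.
Saa1, chr7:46742981-46743230, minus strand: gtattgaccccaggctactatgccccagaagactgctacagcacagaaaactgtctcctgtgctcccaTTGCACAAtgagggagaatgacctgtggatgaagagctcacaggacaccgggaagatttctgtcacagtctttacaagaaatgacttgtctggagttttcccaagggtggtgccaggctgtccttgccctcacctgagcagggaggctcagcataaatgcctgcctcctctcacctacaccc
Saa2, chr7:46751583-46751832, plus strand: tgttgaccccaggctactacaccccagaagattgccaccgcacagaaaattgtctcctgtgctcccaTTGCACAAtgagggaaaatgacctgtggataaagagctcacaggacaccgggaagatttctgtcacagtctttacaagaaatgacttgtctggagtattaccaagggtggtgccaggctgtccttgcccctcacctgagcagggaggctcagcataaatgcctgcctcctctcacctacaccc
Saa3, chr7:46715677-46715926, minus strand: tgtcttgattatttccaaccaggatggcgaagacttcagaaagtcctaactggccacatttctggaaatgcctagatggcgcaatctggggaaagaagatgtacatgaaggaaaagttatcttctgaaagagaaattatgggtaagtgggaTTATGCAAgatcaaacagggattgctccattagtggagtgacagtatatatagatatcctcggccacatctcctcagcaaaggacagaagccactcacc
Saa4, chr7:46732604-46732853, minus strand: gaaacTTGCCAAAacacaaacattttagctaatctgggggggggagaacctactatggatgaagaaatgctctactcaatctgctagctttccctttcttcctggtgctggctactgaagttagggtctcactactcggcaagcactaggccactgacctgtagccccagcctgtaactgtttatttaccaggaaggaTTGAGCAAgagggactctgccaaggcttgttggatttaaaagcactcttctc
Lcn2, chr2:32387740-32387989, minus strand: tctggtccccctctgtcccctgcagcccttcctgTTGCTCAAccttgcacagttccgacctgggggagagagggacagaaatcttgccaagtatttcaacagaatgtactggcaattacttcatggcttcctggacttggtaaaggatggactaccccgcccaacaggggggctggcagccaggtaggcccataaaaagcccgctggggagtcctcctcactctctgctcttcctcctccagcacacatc
Serpina3n, chr12:104406458-104406707, plus strand: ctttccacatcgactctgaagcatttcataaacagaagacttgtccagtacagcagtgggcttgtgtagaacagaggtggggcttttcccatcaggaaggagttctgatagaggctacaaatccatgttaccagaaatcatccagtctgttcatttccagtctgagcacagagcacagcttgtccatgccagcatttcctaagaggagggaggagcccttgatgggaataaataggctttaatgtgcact

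The Saa1 and Saa2 windows were 94.8% identical over 251 aligned columns. Those of Saa3 and Saa4 matched them at 42.6% to 48.9%, and the remaining pairs of members lay at 43.1% to 52.6%. The C/EBP motif TTGCNNAA, searched on both strands, was found in 7 of the 8 windows, against 9.57% of 32841 windows of the same length. Saa1 holds it at -182 to -175 from the start site, Saa2 at -183 to -176, Saa3 at -99 to -92 and Lcn2 at -216 to -209. Saa4, which was called higher at no time, holds 2 matches, at -245 to -238 and at -52 to -45. Orm2 holds it at -120 to -113 on both strands, Hpx at -200 to -193, and Serpina3n has none. The STAT motif TTCNNNGAA, the NF-kB motif and the IL-6 response core CTGGGAA, on both strands, were found in 0 of the 8 windows, against 7.02%, 3.9% and 9.1% of all windows. TATAAA, searched on the gene's strand, was found in Orm2 alone, against 7.59%. None of the matches in these windows overlapped another. A match describes these letters and is not a measured binding site. For Saa1, Saa3 and Serpina3n the start site used lies inside the gene's annotated span, and windows of other start sites were not searched.

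**Figure D1:**
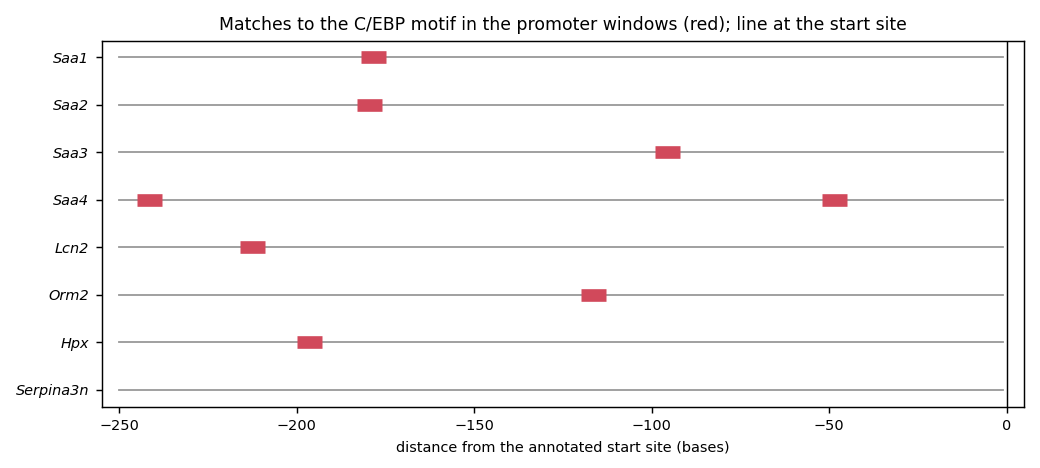
Positions of C/EBP motif matches (red) in the 250 bases before the start site of the 8 members with a window; the horizontal axis is the distance from the start site in bases and the vertical line marks the start site. Saa1 and Saa2 have their match at nearly the same distance, Saa4 has 2 matches and Serpina3n has none.

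The liver label was checked first. The summed signal of 10 hepatocyte markers lay between 17.02 and 17.22 on all 33 arrays, and albumin (Alb) between 14.60 and 14.80. That sum was taken on the linear scale, so the strongest markers weigh most. Single markers did change. At 0.25 d, 1 of the 10 was called higher and 2 lower, beside 17.2% and 28.8% of all tested genes. The largest difference called was that of Ass1 at 0.25 d (-1.19 ± 0.41, adjusted p = 0.021, limma). The description field of the labels speaks of fat-derived cells on all arrays, while liver stands in the tissue and source fields. Adiponectin (Adipoq), the defining adipocyte gene, ranged from 2.76 to 7.07. Some neutrophil granule genes were near the floor, with Mpo at 4.04 to 4.80, Camp at 4.78 to 5.38 and Elane at 5.31 to 5.90. Other markers of that list were not flat, and S100a8 reached 8.36 and S100a9 8.43. At 0.25 d, 6 of 11 tested neutrophil and monocyte markers were called higher, beside 17.2% of all tested genes. Mmp8 was among them (1.20 ± 0.19, adjusted p = 2.18e-05, limma). The number of neutrophils in these livers was not tested. In whole liver RNA, fewer cells of a type and less RNA per cell cannot be told apart. The labels give no day of operation or cage. The p-values rest on the spread between livers of the same time, pooled over all 11 times.

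Of the 10 genes, 9 were higher than at 0 d by 0.25 d after the operation, and Saa4 did not pass the test there. At 0.25 d the difference was largest for Lcn2 (7.78), Saa2 (5.39) and Saa1 (3.80). Saa1, Saa2, Lcn2, Orm1, Orm2, Hp, Hpx and Serpina3n were still called higher at 3 d. Serpina3n rose as early but lost much of the rise between 1 d and 1.5 d. At 7 d and 14 d, single livers of the same time lay far apart.

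By the moderated F-test of limma all 10 genes varied with time (adjusted p from 1.74e-12 for Serpina3n to 0.00402 for Saa4), where 69.4% of all tested genes did. Against 0 d, limma called 9 of the 10 higher at 0.25 d, where 17.2% of tested genes were called higher. At 0.5 d it called 8 higher and 1, Saa4, lower, against 15.8% of tested genes higher and 19.4% lower. The count was 8 higher at 0.75 d (9.84% of tested genes), 9 at 1 d (8.16%), 9 at 1.5 d (8.33%), 8 at 2 d (11%) and 8 at 3 d (10.2%). It was 6 at 4 d (1.88%) and 2, Saa1 and Lcn2, at 7 d (0.125%). At 14 d limma called 0 of the 10 (0.0147% of tested genes were called higher), and 0 were called in each other setting tried. An unadjusted p under 0.05 was seen there for 4 of the 10 and for 1870 of the 13642 tested genes. The median difference of the 10 was 2.84 at 0.25 d, 2.92 at 1 d, 1.20 at 3 d and 0.36 at 14 d, beside -0.03, -0.01, -0.02 and -0.05 over all tested genes. All these comparisons share the same 3 arrays of 0 d and are not independent of each other.

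**Figure D2:**
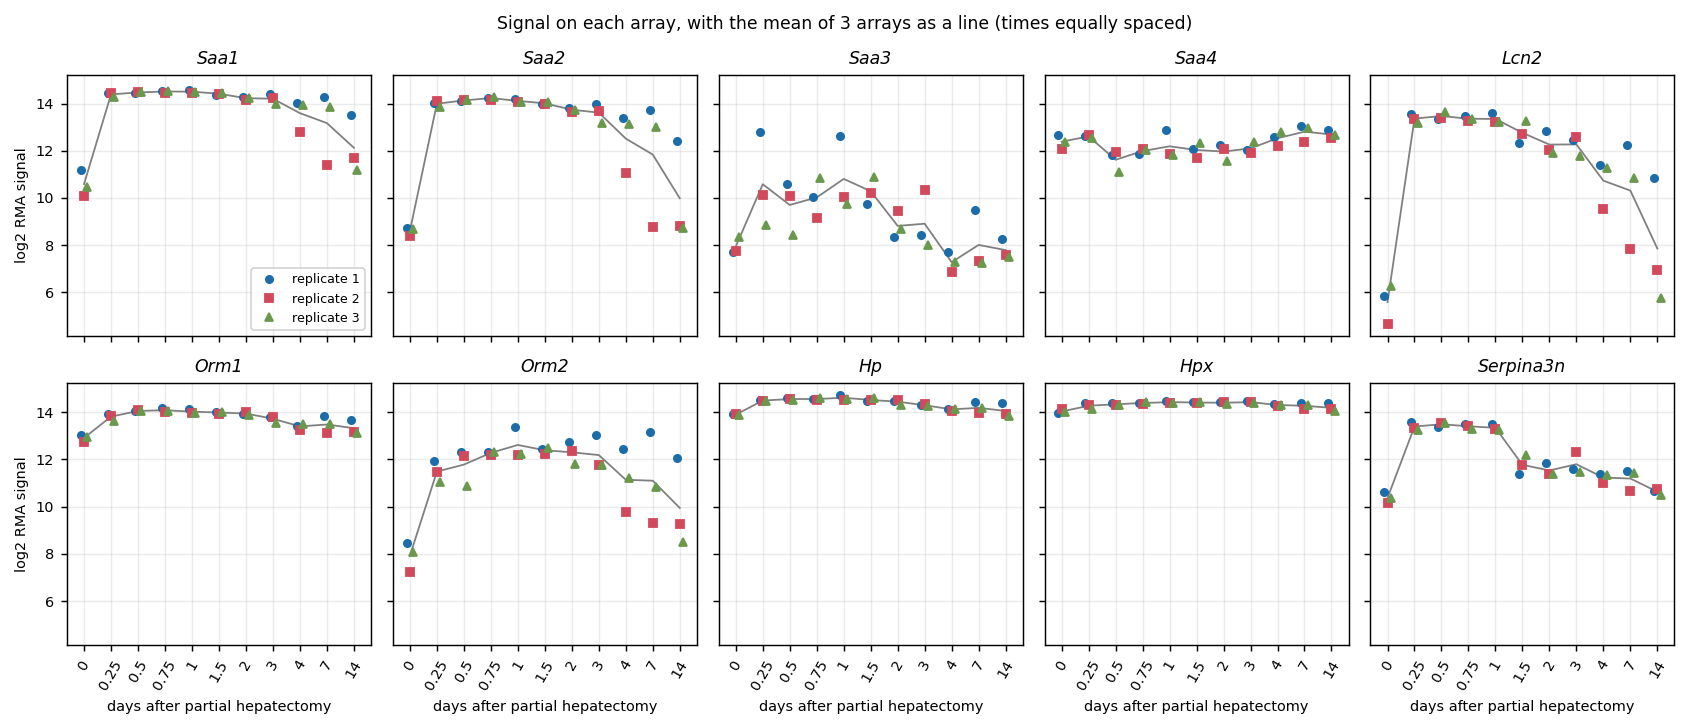
Log2 signal (vertical axis) of each of the 10 genes on each array against the time after partial hepatectomy in days (horizontal axis, times equally spaced); points are single livers by replicate number and lines join the means of 3 arrays. The early points of Saa1, Saa2 and Lcn2 lie close together near their highest level, and from 4 d on the points of 1 time spread apart.

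Saa1 and Saa2 encode the inducible serum amyloids of the liver, small apolipoproteins that travel with high density lipoprotein. Saa1 read 11.20, 10.09 and 10.46 in the 3 livers at 0 d and 14.43, 14.44 and 14.29 at 0.25 d. At 0.75 d, its highest mean, it read 14.52, 14.46 and 14.55. The groups do not overlap, and the early livers, whose signals lie near the top of the array's range, read closer to each other than the 0 d livers do. The difference at 0.25 d was 3.80 ± 0.50 (SE; adjusted p = 1.68e-06, limma), and at 0.75 d 3.92 ± 0.50 (adjusted p = 2.25e-06, limma), or 15.2-fold.

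Saa2 started lower on its own scale, at 8.73, 8.38 and 8.68, and read 14.00, 14.11 and 13.86 at 0.25 d. It peaked at 0.75 d with 14.25, 14.16 and 14.28. Again no later liver up to 3 d came near the 0 d livers. The difference was 5.39 ± 0.84 (adjusted p = 1.36e-05, limma), or 42.0-fold, at 0.25 d and 5.63 ± 0.84 (adjusted p = 1.81e-05, limma) at 0.75 d.

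The 2 genes cannot be told apart with certainty on these arrays. The probe set annotated to Saa1 carries a transcript accession that RefSeq gives to Saa2, the gene tables list each name as a synonym of the other, and the suffixes of both probe set names mark probes shared with other transcripts. A second probe set annotated to Saa1, which carries an accession of Saa1 itself, read 11.84, 10.53 and 10.83 at 0 d and 14.26, 14.23 and 14.15 at 0.25 d. It rose as the chosen one did.

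Both genes were still called at 3 d and 4 d. Saa1 read 14.41, 14.23 and 13.97 at 3 d and 14.03, 12.81 and 13.94 at 4 d, with differences of 3.62 ± 0.50 (adjusted p = 1.43e-05, limma) and 3.01 ± 0.50 (adjusted p = 0.00199, limma). Saa2 read 13.37, 11.04 and 13.13 at 4 d, a difference of 3.91 ± 0.84 (adjusted p = 0.0118, limma). The Saa2 call was lost without replicate 1 of 0 d (adjusted p = 0.0509) or replicate 1 of 4 d (0.0696). Replicate 2 of 4 d is the low liver for both, though still above the 0 d livers.

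Saa3 encodes a serum amyloid known from macrophages and adipocytes as well as liver, and it rose with far more spread. It read 7.72, 7.74 and 8.35 at 0 d and 12.78, 10.10 and 8.85 at 0.25 d, and the SD at 0.25 d was 2.01. At 1 d it read 12.64, 10.05 and 9.73, and at 1.5 d 9.74, 10.22 and 10.90. From 0.25 d to 1.5 d each liver lay above all 3 livers of 0 d, but replicate 1 stands well above the other two at 0.25 d and at 1 d. At 0.25 d the macrophage gene Marco read 8.34, 6.26 and 6.27, and the summed macrophage markers 12.22, 11.93 and 11.77. The neutrophil and monocyte sum was 9.97, 10.05 and 9.74, highest in replicate 2. The adipocyte sum was 11.09, 11.08 and 10.74, and the endothelial, stellate and bile duct cell sum 11.12, 11.04 and 10.66. At 1 d Marco read 8.91, 8.83 and 9.01, and the macrophage sum was 12.63, 12.68 and 12.80, lowest in replicate 1. The neutrophil and monocyte sum was 9.66, 9.25 and 9.23, highest in replicate 1. So were the adipocyte sum (9.78, 9.50 and 9.51) and the endothelial, stellate and bile duct cell sum (11.24, 10.61 and 10.51). The part of these cell types in the Saa3 values was not tested.

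The Saa3 difference was 2.64 ± 0.82 (adjusted p = 0.0104, limma) at 0.25 d, 2.87 ± 0.82 (adjusted p = 0.0158, limma) at 1 d and 2.35 ± 0.82 (adjusted p = 0.0429, limma) at 1.5 d. Without replicate 1 of 0.25 d that difference was 1.54 (adjusted p = 0.13, limma), and without replicate 1 of 1 d it was 1.95 there (adjusted p = 0.137, limma). The 1 d call was also lost without replicate 1 or 2 of 0 d (adjusted p = 0.0523 and 0.0522). The 1.5 d call was lost in 6 of 6 omissions of a single liver (adjusted p from 0.0545 to 0.145, limma). At 0.5 d and 0.75 d it did not pass, with 1.76 (adjusted p = 0.0977, limma) and 2.08 (adjusted p = 0.0682, limma). At 4 d Saa3 read 7.70, 6.85 and 7.26, below all 0 d livers, a difference of -0.66 ± 0.82 that did not pass (adjusted p = 0.747, limma). All livers of Saa1 and Saa2 lay above 0 d at that time.

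Saa4 encodes the constitutive serum amyloid, and it took another course from its cluster neighbours. It read 12.68, 12.09 and 12.38 at 0 d and 12.60, 12.68 and 12.53 at 0.25 d, which overlap. The difference there was 0.22 ± 0.26 (95% interval -0.30 to 0.75, adjusted p = 0.488, limma). At 0.5 d it read 11.83, 11.95 and 11.08, below each 0 d liver, the one time at which limma called it against 0 d.

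That Saa4 difference was -0.76 ± 0.26 (adjusted p = 0.0215, limma). It was -0.61 (adjusted p = 0.106) without replicate 1 of 0 d and -0.49 (adjusted p = 0.181) without replicate 3 of 0.5 d, and so rests on single livers. The step from 0.25 d to 0.5 d was -0.99 ± 0.26 (adjusted p = 0.00715, limma), a direction in which 5.25% of tested genes were called in that step. It was not called with array weights or with only the arrays compared. The second Saa4 probe set went from 11.28, 11.51 and 11.42 to 10.20, 10.69 and 9.60 in the same step, also with no overlap. Its 0.5 d livers did overlap its 0 d range of 10.65 to 11.45. Saa4 ended at 12.88, 12.52 and 12.66 at 14 d, where its difference from 0 d was 0.31 ± 0.26 (adjusted p = 0.6, limma).

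Lcn2 encodes lipocalin 2, which binds bacterial iron carriers and so keeps iron from microbes. It lay near the floor at 0 d, with 5.84, 4.64 and 6.27, and read 13.56, 13.34 and 13.18 at 0.25 d. No liver between 0.25 d and 3 d read under 11.76. The difference was 7.78 ± 0.88 (adjusted p = 1.87e-07, limma) at 0.25 d and 7.89 ± 0.88 (adjusted p = 1.34e-07, limma) at 0.5 d, the largest of the 10 genes at each of these times. The summarization compresses signals near the floor, which bears on the 0 d level of Lcn2.

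The mean of Lcn2 went from 13.34 at 1 d to 12.26 at 2 d and that of Saa1 from 14.50 to 14.23, and no step between neighbouring times passed the test for either. At 4 d it read 11.40, 9.53 and 11.25, a difference of 5.15 ± 0.88 (adjusted p = 0.00218, limma). Replicate 2 is again the low liver of that time.

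Orm1 and Orm2 encode orosomucoids (alpha-1-acid glycoproteins), lipocalins of plasma that bind basic and neutral drugs. Orm1 read 13.05, 12.74 and 12.96 at 0 d, already high on the array, and 13.94, 13.86 and 13.65 at 0.25 d. Its mean was highest at 0.75 d with 14.18, 14.03 and 14.06. No liver up to 3 d overlaps with 0 d, and the differences were 0.90 ± 0.14 (adjusted p = 1.34e-05, limma) at 0.25 d and 1.17 ± 0.14 (adjusted p = 7.52e-07, limma) at 0.75 d.

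Orm2 started from 8.46, 7.21 and 8.09 and read 11.95, 11.48 and 11.03 at 0.25 d. It was highest at 1 d with 13.39, 12.21 and 12.24. Its means climbed from 0.25 d to 1 d by steps that did not pass the test, while Saa1, Saa2 and Lcn2 had nearly their full difference at 0.25 d. The difference was 3.57 ± 0.77 (adjusted p = 0.000571, limma) at 0.25 d and 4.70 ± 0.77 (adjusted p = 0.00012, limma), or 25.9-fold, at 1 d.

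At 4 d only 1 of the neighbours passed the test. Orm2 read 12.42, 9.78 and 11.21, with a difference of 3.22 ± 0.77 (adjusted p = 0.0222, limma), and Orm1 read 13.44, 13.26 and 13.51, with 0.49 ± 0.14 that did not pass (adjusted p = 0.0559, limma). All 6 of these values lie above the 0 d livers of their gene, and the difference between the 2 genes was not tested. Both calls lay near the threshold. With the replicate number as a block Orm1 passed too (adjusted p = 0.0273), and Orm2 was lost in 4 of 6 omissions of a single liver (adjusted p from 0.0535 to 0.137, limma).

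Haptoglobin (Hp) binds free haemoglobin, and hemopexin (Hpx) binds free haem. Hp read 13.91, 13.93 and 13.87 at 0 d and 14.53, 14.50 and 14.47 at 0.25 d, and it was highest at 1 d with 14.72, 14.54 and 14.58. The rise was small but tight, with no overlap up to 7 d. It was 0.60 ± 0.10 (adjusted p = 4.22e-05, limma) at 0.25 d, 0.71 ± 0.10 (adjusted p = 2.13e-05, limma) at 1 d and 0.40 ± 0.10 (adjusted p = 0.00606, limma) at 3 d.

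Hpx read 13.96, 14.13 and 14.01 at 0 d, 14.37, 14.31 and 14.15 at 0.25 d and 14.49, 14.40 and 14.40 at 1 d. The lowest liver of 0.25 d lies just above the highest of 0 d. The difference was 0.24 ± 0.08 (adjusted p = 0.0106, limma) at 0.25 d, 0.40 ± 0.08 (adjusted p = 0.000526, limma) at 1 d and 0.28 ± 0.08 (adjusted p = 0.0449, limma) at 4 d. The first of these did not pass without replicate 1 of 0.25 d (0.19, adjusted p = 0.0686, limma) or without replicate 1 of 0 d (0.21, adjusted p = 0.0533). The 4 d call was lost in 5 of 6 omissions of a single liver (adjusted p from 0.0909 to 0.205), with no filter (0.0603), with a shift to a common median (0.0606) and with only the arrays compared (0.181).

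The highest signal on an array lay between 14.80 and 14.89. Hp came within 0.0751 of its array's highest signal, Saa1 within 0.228, Hpx within 0.306, Saa2 within 0.573 and Orm1 within 0.656. Whether the top of the scale held down the differences of these 5 genes, or the spread between their livers, was not tested.

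Serpina3n encodes an antichymotrypsin-like serine protease inhibitor and had a short high phase. It read 10.61, 10.14 and 10.35 at 0 d, 13.59, 13.34 and 13.26 at 0.25 d and 13.49, 13.27 and 13.26 at 1 d. At 1.5 d it read 11.36, 11.76 and 12.20, below each liver of 1 d and above each of 0 d. The difference from 0 d was 3.03 ± 0.21 (adjusted p = 2.23e-10, limma) at 0.25 d, 2.97 ± 0.21 (adjusted p = 2.25e-09, limma) at 1 d and 1.41 ± 0.21 (adjusted p = 5.71e-05, limma) at 1.5 d.

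The step of Serpina3n from 1 d to 1.5 d was -1.57 ± 0.21 (adjusted p = 0.000238, limma), a fall that 0.968% of tested genes shared in that step. Of the 9 steps between neighbouring times, this one and the step of Saa4 from 0.25 d to 0.5 d were the only ones that limma called for any of the 10 genes. The records of the 0.25 d, 0.5 d, 0.75 d and 1.5 d samples belong to a later run of accessions, so 1.5 d was also set against the mean of 1 d and 2 d. There Serpina3n differed by -0.66 ± 0.18 (adjusted p = 0.403, limma), and 0 of the 10 were called. With array weights 1, Serpina3n, was called. An unadjusted p under 0.05 was seen for 1 of the 10 and for 975 of the 13642 tested genes. Within the earlier run the mean of Serpina3n was 13.34 at 1 d and 11.53 at 2 d, a difference that was not tested. The time 0.75 d is followed closely by 1 d of the earlier run. In that step 0 of the 10 were called, beside 0.594% of tested genes higher and 0.579% lower. For 0.25 d to 0.75 d, which do not lie between close times of the earlier run on both sides, run and time cannot be told apart.

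Serpina3n stayed at a lower raised level to 4 d, with 11.84, 11.37 and 11.40 at 2 d and 11.59, 12.33 and 11.47 at 3 d. At 4 d its livers lay between 10.9998 and 11.37, a difference of 0.87 ± 0.21 (adjusted p = 0.025, limma). That call was lost in 4 of 6 omissions of a single liver (adjusted p from 0.0572 to 0.112, limma). At 14 d it read 10.67, 10.75 and 10.47, and the difference was 0.27 ± 0.21 (adjusted p = 0.58, limma).

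**Figure D3:**
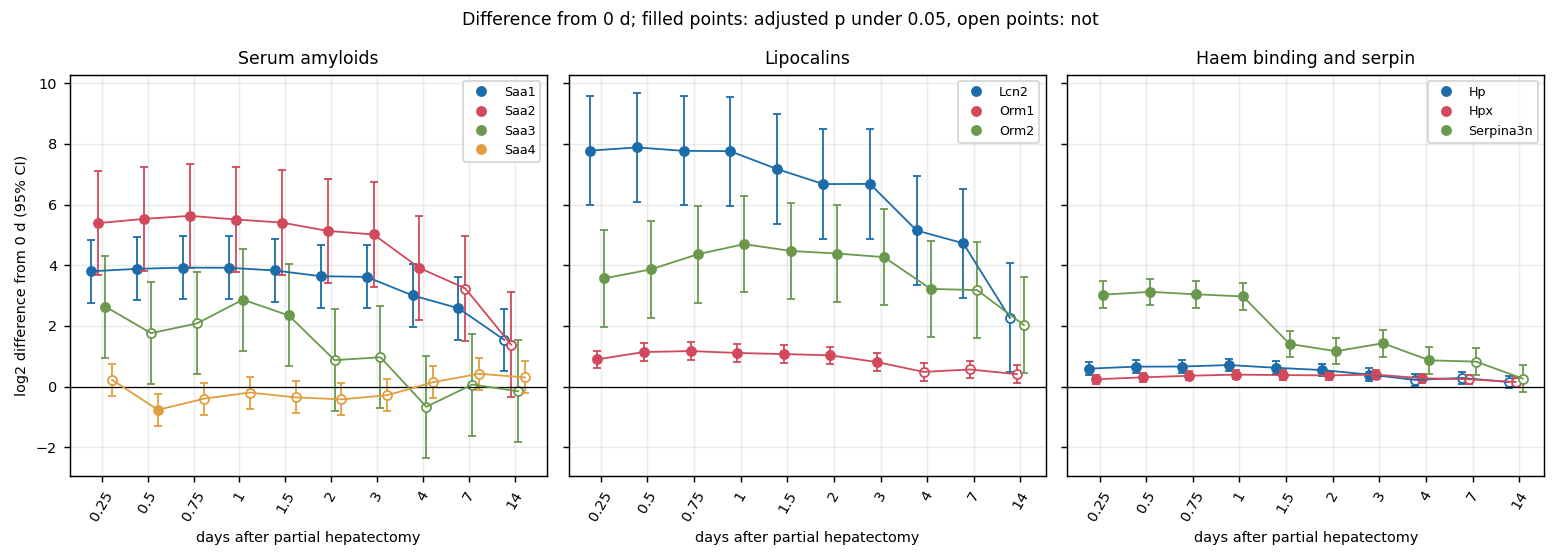
Difference of each gene from 0 d on the log2 scale (vertical axis) by time after partial hepatectomy in days (horizontal axis), with 95% intervals from limma's pooled spread; filled points passed an adjusted p of 0.05 and open points did not. Lcn2 starts at 7.78 and Saa2 at 5.39 at 0.25 d, Saa4 lies between -0.76 at 0.5 d and 0.43 at 7 d, and Serpina3n drops from 2.97 at 1 d to 1.41 at 1.5 d.

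The livers of the late times were uneven, and the same livers were high or low for several genes. At 7 d, Saa2 read 13.74, 8.77 and 12.99, so that replicate 2 lay at the level of the 0 d livers while the other two stayed high. Lcn2 read 12.24, 7.84 and 10.86 and Saa1 14.28, 11.38 and 13.85 at 7 d. Orm2 read 13.18, 9.31 and 10.82. Replicate 2 was the lowest of the 3 livers for each of these 4 genes.

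At 14 d the high liver was replicate 1. Saa2 read 12.42, 8.80 and 8.72, Lcn2 10.84, 6.96 and 5.75, Saa1 13.52, 11.69 and 11.16 and Orm2 12.05, 9.27 and 8.52. Replicate 1 thus lay far above the 0 d livers, and the other two lay within their range or less than 1 above it. Hp showed the same order in smaller steps, with 14.37, 13.94 and 13.85.

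The spread of Saa2 between livers of 1 time went from an SD of 0.00998 at 0.5 d to 2.68 at 7 d, and that of Lcn2 from 0.115 at 0.75 d to 2.66 at 14 d. The pooled SE of limma mixes these, so for these genes it is wide for the early times and narrow for the late ones. At 7 d the calls were Saa1 (2.58 ± 0.50, adjusted p = 0.0256, limma) and Lcn2 (4.73 ± 0.88, adjusted p = 0.0238, limma). Saa2 (3.24 ± 0.84, adjusted p = 0.0949) and Orm2 (3.18 ± 0.77, adjusted p = 0.0777) did not pass.

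These calls rest on single livers. Without replicate 2 of 7 d limma called 6 of the 10 genes, and without replicate 1 or 3 of 7 d, or replicate 1 or 2 of 0 d, it called 0. It called 1 without replicate 3 of 0 d. The 4 d count of 6 became 3 without replicate 1 of 0 d, 2 without replicate 1 of 4 d and 3 without replicate 3 of 4 d. At 14 d the differences were 1.54 ± 0.50 for Saa1 (adjusted p = 0.212), 1.38 ± 0.84 for Saa2 (95% interval -0.34 to 3.11, adjusted p = 0.462), 2.27 ± 0.88 for Lcn2 (adjusted p = 0.264) and 2.03 ± 0.77 for Orm2 (adjusted p = 0.262), all by limma.

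Markers of macrophages and myeloid cells moved in part with the same livers. Summed over 13 measured neutrophil and monocyte markers, the log2 signal was 10.26, 9.25 and 9.32 at 7 d and 10.28, 9.32 and 9.18 at 14 d, against 9.02 to 9.06 at 0 d. The calgranulin S100a8 read 7.84, 5.03 and 4.96 at 7 d and 8.17, 5.36 and 4.98 at 14 d. S100a9 read 7.96, 5.45 and 5.90 at 7 d. Not every marker of the list followed. Elane, near the floor, read 5.47, 5.56 and 5.65 at 7 d, and Camp 5.16, 5.13 and 5.20 at 14 d. The sums were taken on the linear scale, so the strongest markers weigh most. The 11 Kupffer cell and macrophage markers summed to 14.04, 12.95 and 12.98 at 7 d and 13.79, 12.79 and 12.33 at 14 d, against 11.87 to 12.40 at 0 d. Replicate 1 was the highest liver of both times in each of these sums, as it was for the 4 genes above. Replicates 2 and 3 of 7 d, in which Saa2 read 8.77 and 12.99, lay close to each other in both sums. Each lay below replicate 1 and above the 0 d livers. At 4 d the neutrophil and monocyte sum was 9.71, 9.32 and 9.54 and the macrophage sum 13.67, 12.87 and 13.01, lowest in replicate 2 and highest in replicate 1, the order of Saa1, Saa2, Lcn2 and Orm2 at that time.

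At 0.25 d, when 9 members were higher, the neutrophil and monocyte sum was 9.97, 10.05 and 9.74, with 6 of 11 tested markers higher, and the macrophage sum was 12.22, 11.93 and 11.77, with 1 of 11 higher and 1 lower. Over all tested genes 17.2% were higher and 28.8% lower at that time. The adipocyte markers, of which 6 were measured, summed to 8.72, 8.83 and 10.93 at 7 d, where Adipoq was 7.07 in replicate 3. At 0.25 d they summed to 11.09, 11.08 and 10.74, against 8.36 to 9.45 at 0 d, and 2 of 5 tested were higher. These 2 were Cidec (5.31 ± 0.55, adjusted p = 5.44e-08, limma) and Fabp4 (2.06 ± 0.53, adjusted p = 0.00289, limma). Adipoq was not called there. It read 3.28, 5.80 and 2.76 at 0.25 d and 2.82, 2.97 and 5.38 at 0 d, which overlap. Of the 11 endothelial, stellate and bile duct cell markers, 3 were higher and 4 lower at 0.25 d, shares not far from those of all tested genes. At 7 d and 14 d 0 were called, where at most 0.125% of all tested genes were called higher and 0.0586% lower. Lcn2 and Saa3 are also made by neutrophils, macrophages or fat cells. The part of other cell types in any of these results was not tested.

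**Figure D4:**
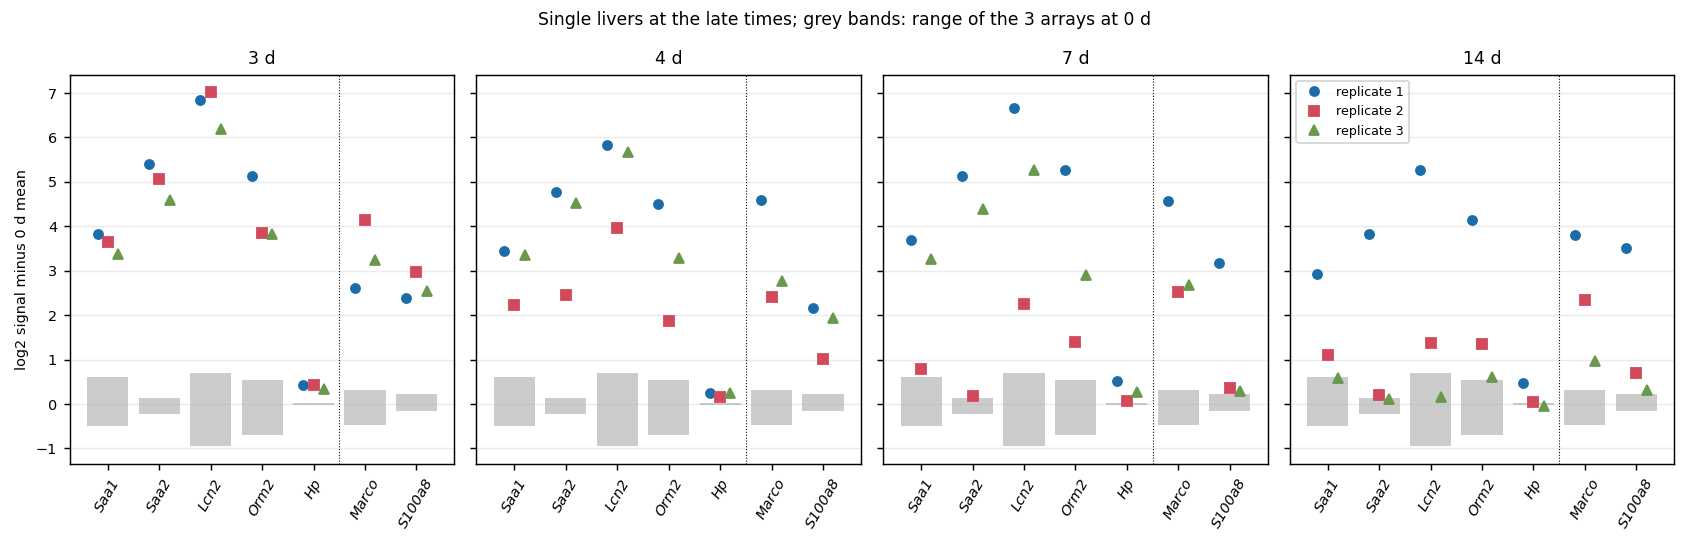
Log2 signal of single livers minus the 0 d mean (vertical axis) at 3 d, 4 d, 7 d and 14 d for Saa1, Saa2, Lcn2, Orm2 and Hp and, right of the dotted line, the macrophage gene Marco and the calgranulin S100a8; grey bands span the 3 livers of 0 d. Replicate 2 is low at 4 d and 7 d for Saa1, Saa2, Lcn2 and Orm2, and replicate 1 is the highest at 14 d for all 7 genes.

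Of 22 tested positive acute phase genes outside the 10, limma called 16 higher and 0 lower at 0.25 d (17.2% and 28.8% of all tested genes), and 14 higher and 1 lower at 0.5 d (15.8% and 19.4%). It called 11 higher at 1 d (8.16% of all tested genes), 5 at 4 d (1.88%) and 0 at 14 d (0.0147%). Their median difference was 1.02 at 0.25 d, beside -0.03 over all tested genes. The metallothioneins Mt2 and Mt1, which bind zinc and copper, rose by 4.73 ± 0.82 (adjusted p = 5.02e-05) and 3.55 ± 0.71 (adjusted p = 0.000256) at 0.25 d. Serum amyloid P (Apcs) rose by 3.03 ± 0.35 at 0.75 d (adjusted p = 5.95e-07). The one lower call at 0.5 d was complement factor B (Cfb, -0.48), named after its value was seen.

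Of 10 tested negative acute phase genes, which encode plasma proteins that fall in inflammation, limma called 2 lower and 0 higher at 0.25 d, fewer than the 28.8% of all tested genes that were lower. At 3 d it called 2 lower and 1 higher, where 10.9% of all tested genes were lower and 10.2% higher. Serpina6, the carrier of glucocorticoids, fell by 4.01 ± 0.34 at 0.5 d (adjusted p = 2.32e-09). Fetub (-0.46 ± 0.11, adjusted p = 0.00379) and the retinol carrier Rbp4 (-0.35 ± 0.08, adjusted p = 0.00177) were lower at 3 d. Albumin differed by -0.02 at 0.25 d and did not pass at any time.

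Of 21 tested genes of IL-6, IL-1 and STAT3 signalling, 10 were higher and 4 lower at 0.25 d, 8 higher and 4 lower at 0.5 d, and 0 were called at 4 d or later. Beside the 17.2% higher and 28.8% lower of all tested genes at 0.25 d, and 15.8% and 19.4% at 0.5 d, the lower calls were at or under the background. The feedback inhibitor Socs3 rose by 3.69 ± 0.67 (adjusted p = 8.99e-05) and the IL-1 receptor Il1r1 by 3.36 ± 0.31 (adjusted p = 1.32e-08) at 0.25 d. Lifr, the receptor of leukaemia inhibitory factor, fell by 3.35 ± 0.16 at 0.5 d (adjusted p = 1.51e-13). Il6 itself lay between 2.17 and 3.00 and Osm between 4.35 and 4.85 on all arrays, both under the filter.

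Of 10 tested receptors and partners of the members, 4 were higher and 1 lower at 0.25 d (17.2% and 28.8% of all tested genes) and 1 higher and 1 lower at 0.5 d (15.8% and 19.4%), where both counts lay under the background. The haem oxygenase gene Hmox1, whose product breaks down haem, rose by 1.83 ± 0.27 at 0.5 d (adjusted p = 8.93e-06). Cd163, the macrophage receptor for the haptoglobin and haemoglobin complex, rose by 1.14 ± 0.39 (adjusted p = 0.02), and Fpr2, a receptor for serum amyloid A, by 0.89 ± 0.36 (adjusted p = 0.0461) at 0.25 d.

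For each member the 3 genes with the most similar time course were sought among 2656 genes outside the 10 whose time means spanned at least 1 on the log2 scale. They were 18 distinct genes, of which 5 stand in the list of other positive acute phase genes. That list has 22 tested genes, and how many of them were among the 2656 was not counted. Genes outside it include Slc41a2 for Saa1 (Pearson's r = 0.96), Plxnc1 for Orm1 (r = 0.95) and Cpne8 for Serpina3n (r = 0.96). Over the 11 time means, Pearson's r with Fgl1, a secreted fibrinogen-like protein of hepatocytes, was 0.98 for Saa1, 0.98 for Saa2, 0.97 for Lcn2, 0.98 for Orm2 and 0.95 for Hpx. Itih3, a heavy chain of the inter-alpha-trypsin inhibitor, came first for Orm1 (r = 0.98) and Hp (r = 0.97). Serpina10 came first for Serpina3n (r = 0.97), Crem for Saa3 (r = 0.93) and Pank1 for Saa4 (r = 0.90). These values describe 11 points that share the same arrays. Among the members, the time means of Saa1 and Saa2 correlated at 0.99, and those of Saa4 correlated with the other 9 at -0.48 to -0.66. Between livers of the same time the sign was the other way. The deviations of Saa4 from its time means correlated with those of the other 9 at 0.35 to 0.61 over 33 arrays.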

How the data were processed

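RNA of 33 livers was measured on Affymetrix mouse arrays, from 5 µg of total RNA per labelling, per the labels' protocols. Per the submitters' processing notes, RMA was the authors' summary of the probes (its version is not given in the sources used here). The deposited table is in log2 units. Because RMA equalizes the arrays' distributions, a change shared by most genes would not be seen. Of 45101 probe sets, 34945 had 1 gene symbol and 932 had several. Per gene, 1 probe set was kept, that with the highest mean, giving 18193 genes. The test was run on those that reached 5 on 3 arrays or more.

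One linear model with 11 time means took in all arrays (limma 3.58.1, R 4.3.3, 22 residual and 3.69 prior degrees of freedom). Two-sided p-values were adjusted by Benjamini-Hochberg over the 13642 genes in each comparison, and 0.05 was the threshold; errors are SE of that model. Each later time was compared with 0 d, neighbouring times with each other, and 1.5 d with the mean of 1 d and 2 d. For arrays the number per time, 3, limits the precision.

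The members and the gene lists were chosen with earlier results of these data known. Named from each list were up to 3 genes with the largest difference from 0 d among those past the threshold, beside marker genes. Similar genes were the 3 with the highest Pearson's r over the 11 time means. In data simulated for 2 d against 0 d over 13642 genes, 70% of 50 changes of 0.5 were recovered and 90% of 50 changes of 1. Of 50 changes of 2 it was 98% and of 50 changes of 4 100%, with 16 false calls. The simulated noise had the same spread at all times for a gene. For Saa2 the SD was 0.00998 at 0.5 d and 2.68 at 7 d, so these rates need not hold for the members. Alternatives were other filters, averaged probe sets, other normalization, an intensity trend, array weights, a replicate block, only the arrays compared, and each array left out. Promoters were aligned with Biopython 1.88 and plots drawn with matplotlib 3.10.9 in Python 3.11.15.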

Additional observations from a re-analysis of the deposited data

Results flagged for a closer look

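Saa4 fell by 0.99 on the log2 scale between 0.25 d and 0.5 d, a step that limma called. In the same step the mean of Saa3 moved by -0.88 and those of Saa1, Saa2, Lcn2, Orm1 and Orm2 by 0.08 to 0.30, none of which passed (adjusted p from 0.222 to 0.946, limma). The difference between those genes and Saa4 was not tested.

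Serpina3n fell by 1.57 between 1 d and 1.5 d, with no overlap of the 3 livers of each time.

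Saa3 differed from 0 d by -0.66 at 4 d, where its 3 livers lay below all 3 livers of 0 d, while from 0.25 d to 1.5 d its livers lay above them. The 4 d difference did not pass the test, and the difference between these times was not tested.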

How the results depend on the processing

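Over 1500 values of the 10 genes against 0 d under the other settings, 1427 kept their direction and side of the threshold, 55 lost the call, 12 gained it and 6 changed sign. None of the 6 was called. Saa3, 7 d against 0 d, became -0.16 with array weights (adjusted p = 0.955), and -0.04, -0.03 or -0.66 without single livers (range -0.66 to 0.45). Saa3, 14 d against 0 d, ranged from -0.39 to 0.057, and Hp, 14 d against 0 d, from -0.0065 to 0.25, without single livers. The count of 2 genes at 7 d became 0 with array weights and 0 with only the arrays compared, and was 0 to 6 without single livers. The count of 6 at 4 d was 2 to 5 without single livers. The count of 1 from 0.25 d to 0.5 d became 0 with array weights and 0 with only the arrays compared, and the count of 0 at 1.5 d against the mean of 1 d and 2 d became 1 (Serpina3n, lower) with array weights. The cause was not tested.

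By limma, calls against 0 d at 0.25 d and 0.5 d were lost for Saa3 at 0.25 d (adjusted p = 0.0595 with array weights, 0.0579 with only the arrays compared), Hpx at 0.25 d (0.0516 and 0.135), Saa4 at 0.5 d (0.111 and 0.086) and Hpx at 0.5 d (0.0657 with only the arrays compared). Saa3 at 1.5 d was lost with no filter (0.05) and with an intensity trend (0.0513). At 4 d Hpx was lost with no filter (0.0603), a shift to a common median (0.0606) and only the arrays compared (0.181), and Orm2 with only the arrays compared (0.0559). At 7 d Saa1 (0.098 and 0.43) and Lcn2 (0.0573 and 0.417) were lost with array weights and with only the arrays compared. Calls were gained for Saa3 at 0.5 d (0.0204) and 0.75 d (0.0259) with array weights, for Saa3 at 0.75 d with only the arrays compared (0.00969), and for Orm1 at 4 d with the filter at 7 (0.0465) and an intensity trend (0.0496). Quantile normalization moved the share of all calls that were higher at 0.25 d from 37.4% to 49.4%. At 7 d the calls were few, with 17 genes higher and 8 lower (68% higher). They were 14 and 2 (87.5%) with quantile normalization and 14 and 12 (53.8%) with a shift to a common median. At 14 d they were 2 and 0 (100%), and 2 and 5 (28.6%) with that shift. Over all genes, the correlation of the deviations of same-numbered livers had a median of 0.018 over 165 pairs, and 33 pairs were over 0.1. Among the members, replicate 1 lay above the mean of its time at 11 of 11 times for Orm2, at 9 for Saa1, Saa2, Lcn2, Orm1, Hp and Hpx, at 8 for Saa4 and Serpina3n and at 7 for Saa3. With the replicate number as a block, 0 counts moved by over 1.5 times, while Orm1 at 4 d (adjusted p = 0.0273) and Orm2 at 7 d (adjusted p = 0.0127) were called by limma. Signal near the floor and near the top of the scale limits what can be seen.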
